A study of Homo sapiens with 4 samples.

Results

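The genes described here take iron into the cell, store it and sense it. They are the transferrin receptors TFRC (ENSG00000072274) and TFR2 (ENSG00000106327), the endosomal iron reductase STEAP3 (ENSG00000115107), the ferritin subunits FTH1 (ENSG00000167996) and FTL (ENSG00000087086), the ferritin receptor NCOA4 (ENSG00000266412), and the iron regulatory proteins IREB2 (ENSG00000136381) and ACO1 (ENSG00000122729). They were chosen by gene name, and all 8 were present among the 11213 gene names of the table, with 27 of its 32551 transcripts. The libraries came from K562, an established chronic myelogenous leukaemia line that carries the BCR-ABL1 fusion. Group shPHF8 held 2 libraries, genotype PHF8 knockdown, from cells given lentivirus with a hairpin against PHF8, a histone demethylase. Group shControl held 2 libraries, genotype WT, from cells given lentivirus with a control hairpin. Cells of both groups were exposed to polybrene and selected with puromycin. The labels do not say whether the numbers of the knockdown libraries mark replicates or hairpins, or whether libraries came from separate cultures. The p-values then measure only the spread between these libraries, which may be technical.

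Cells take up iron bound to transferrin through TFRC and release it in the endosome, where STEAP3 reduces it for transport into the cytosol. Iron not used for haem or iron-sulphur clusters is stored in ferritin, a shell of FTH1 and FTL subunits, and is released again when NCOA4 carries ferritin to the lysosome. When iron is scarce, the proteins encoded by ACO1 (IRP1) and IREB2 (IRP2) bind hairpins called iron-responsive elements. Bound in the 3′ UTR of TFRC they protect the mRNA from decay, and bound in the 5′ UTR of FTH1 and FTL they block translation. Erythroid cells, which K562 resembles in part, need much iron for haem and carry TFRC in high amounts.

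The elements themselves are shown because they link the uptake and storage genes to the sensing proteins. They were searched in the GENCODE release 29 sequences of the listed transcripts as a C, then 5 bases, the loop CAGTGN, and 5 bases that pair with the first 5, with G-T pairs allowed and only the transcribed strand read. A match was found in 187 of the 11122 genes searched, or 1.68%, and in TFRC, FTH1 and FTL among the genes described here. Capitals mark the loop, each window is 27 bases written 5′ to 3′ as DNA, and the coordinates are on GRCh38, another build than the hg19 of the deposited table. FTH1 lies at chr11:61967575-61967601 (minus strand, 5′ UTR), FTL at chr19:48965336-48965362 (plus strand, 5′ UTR), and the TFRC windows, all on the minus strand in the 3′ UTR, at chr3:196050980-196051006, chr3:196050576-196050602, chr3:196050511-196050537 and chr3:196050464-196050490 in the order listed.
FTH1: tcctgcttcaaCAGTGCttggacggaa
FTL: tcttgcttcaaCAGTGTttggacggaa
TFRC a: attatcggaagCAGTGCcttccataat
TFRC b: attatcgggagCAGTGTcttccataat
TFRC c: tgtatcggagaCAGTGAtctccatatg
TFRC d: attatcgggaaCAGTGTttcccataat
The ferritin windows share 25 of 27 bases. All 3 listed TFRC transcripts contain the same 4 matches, beginning 939 to 1455 bases after the end of the coding region. An element with another loop or stem would not match, so these windows may not be all that the genes carry.

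PHF8 itself was at 6.06 and 6.42 TPM in the shPHF8 libraries, against 25.9 and 22.5 TPM in the shControl libraries. TPM is transcript abundance per length, with every library brought to an equal total, so it keeps no record of read number and the depth of these libraries is unknown. Each difference below is the shPHF8 mean less the shControl mean of log2(TPM + 1), and its standard error (SE) comes from limma fitted over 10972 genes. No gene passed limma with Benjamini-Hochberg adjustment at 0.05 (0 of 10972, smallest adjusted p 0.0554), and 2414 had an unadjusted limma p under 0.05. Across the alternatives tried, genes passed only with quantile normalization (17 higher and 20 lower) and with the most abundant transcript of each gene (10 higher and 11 lower). For the iron genes the adjusted calls were likewise 0 of 8. Unadjusted, TFRC was the 1 gene higher and NCOA4 and ACO1 the 2 genes lower at 0.05 (limma), against a background of 22.0% of all genes in either direction, 9.90% higher and 12.1% lower. The groups did not overlap for 5 of the 8 genes, against 55.3% of all genes: for 2 both knockdown libraries were above both controls (26.0% of all genes) and for 3 below (29.3%). The median absolute difference was 0.28 for the 8 genes and 0.25 for all genes tested. The results below are those of single genes.

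**Figure D1:**
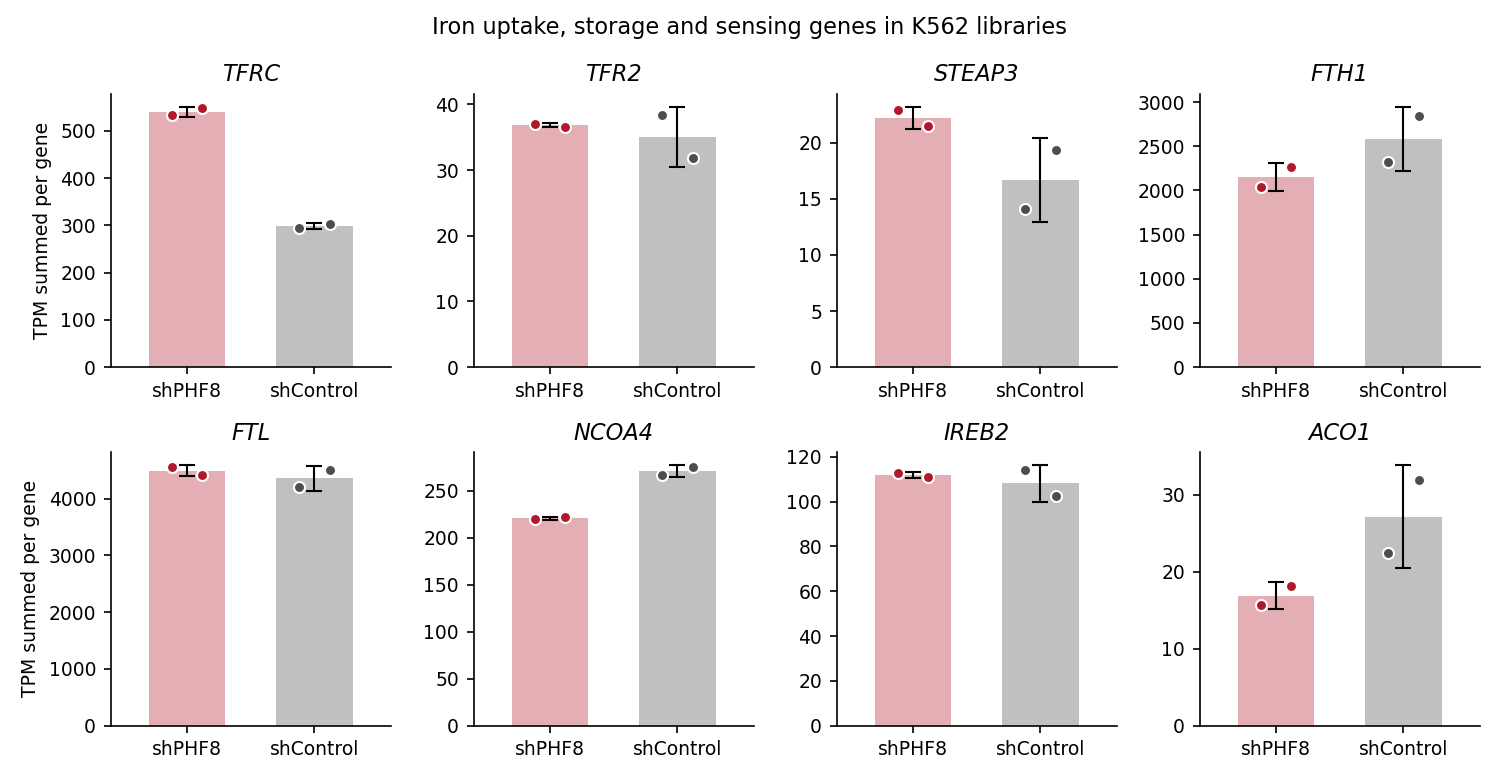
Level of each gene in TPM summed over its transcripts (vertical axes, each from 0). Points are single libraries, bars are means and whiskers are SD (n = 2). TFRC is the gene with the widest gap between groups relative to their spread, with shPHF8 libraries at 533 and 548 TPM and shControl libraries at 294 and 303 TPM.

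TFRC, the receptor that brings in iron-loaded transferrin, had the clearest difference of the 8 genes. It was at 533 and 548 TPM in the shPHF8 libraries, against 294 and 303 TPM in the shControl libraries. Both knockdown libraries lay above both controls, and each pair of libraries agreed within 1.03 times. The means were 540 ± 11.1 TPM in shPHF8 and 299 ± 6.27 TPM in shControl (SD, n = 2 each), 1.81 times as high in the knockdown, and the 95% confidence interval ran from 1.62 to 2.01 times on the log2(TPM + 1) scale. The difference was 0.85 ± 0.06 (SE), at the 96.7th percentile of all genes tested, and 12 genes had a smaller p. It missed the threshold (limma, Benjamini-Hochberg adjusted p = 0.0554). With quantile normalization it passed (limma, Benjamini-Hochberg adjusted p = 0.0485), and over the 12 alternatives tried the adjusted p ran from 0.0485 to 0.846, the highest when only the most abundant transcript was used.

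Several markers of erythroid cells differed in the same libraries. Of 14 erythroid markers, 9 were higher and 0 lower at an unadjusted limma p under 0.05, against 9.90% higher and 12.1% lower among all genes. The 9 were the 6 globins, which summed to 16281 and 15493 TPM in shPHF8 libraries and 9957 and 10821 TPM in shControl libraries, with HEMGN, KLF1 and ALAS2. The 8 markers other than globins summed to 1677 and 1600 TPM in shPHF8 libraries and 1343 and 1406 TPM in shControl libraries. Of these 8, 3 were higher and 0 lower. The globins include HBG2 and its near-identical copy HBG1, so the 6 are not fully separate markers. The markers were listed with earlier results of these data known, and their counts are descriptions. The erythroid transcription factors GATA1 and NFE2 lay the other way without passing. GATA1 was at 311 and 307 TPM in shPHF8 libraries, against 339 and 343 TPM in shControl libraries, and NFE2 at 162 and 149 TPM in shPHF8 libraries, against 173 and 196 TPM in shControl libraries. The receptor EPOR overlapped, at 9.74 and 9.75 TPM in shPHF8 and 17.7 and 7.89 TPM in shControl libraries. The markers of monocytes, macrophages and granulocytes that were present were lower. Of 15 listed, 7 were present and all 7 were lower at that threshold, against 12.1% of all genes. Their summed levels were 121 and 110 TPM in shPHF8 and 200 and 229 TPM in shControl libraries. The other markers listed, CD14, CD163, CSF1R, MRC1, FCGR3A, S100A8, MPO and ELANE, were not among the gene names present. Of the 7, ITGAM, FCGR1A and S100A9 were near the floor, at 0 to 0.575 TPM in shPHF8 and 1.65 to 5.67 TPM in shControl libraries. These passed the filter of a mean of at least 1 TPM only through the shControl libraries. They could thus enter the count only as lower, and add nothing to the comparison with 12.1%. The rest, CD68, LYZ, CD33 and SPI1, were at 13.5 to 43.2 TPM in shPHF8 and 27.6 to 74.7 TPM in shControl libraries. Of 6 megakaryocyte markers 3 were found and 2 tested, since PPBP fell below the filter. Of these 2, 1 was higher and 0 lower at an unadjusted limma p under 0.05, against 9.90% higher and 12.1% lower among all genes. The 3 summed to 48.3 and 50.6 TPM in shPHF8 and 21.3 and 24.98 TPM in shControl libraries. Most of this sum was the platelet tubulin TUBB1, which was the 1 called. In bulk RNA, fewer cells of a type and less RNA per cell cannot be told apart. The part of these markers in the TFRC difference was not tested.

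TFR2, a second transferrin receptor that serves mainly as an iron sensor in liver and erythroid cells, showed no such gap. It was at 37.1 and 36.6 TPM in shPHF8 libraries, against 38.3 and 31.8 TPM in shControl libraries. The groups overlapped, since both knockdown libraries lay between the controls. The difference was 0.07 ± 0.14 (SE), and its interval ran from 0.814 to 1.36 times (limma, Benjamini-Hochberg adjusted p = 0.781). The level of TFRC was 14.4 and 15.0 times that of TFR2 in shPHF8 libraries and 7.68 and 9.53 times in shControl libraries.

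STEAP3, the reductase that converts ferric to ferrous iron in the endosome, was at 22.9 and 21.5 TPM in shPHF8 libraries, against 14.0 and 19.3 TPM in shControl libraries. Both knockdown values lay above both controls, but the controls differed from each other by 1.38 times. The difference was 0.41 ± 0.20 (SE) and did not pass (limma, Benjamini-Hochberg adjusted p = 0.324). It depended on the controls: without shControl replicate 1 it was 0.19, and without shControl replicate 2 it was 0.62.

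The ferritin subunits were the most abundant of the 8 genes. FTL, the light chain that helps form the mineral core, ranked 12th of all genes by mean level and FTH1, the heavy chain that oxidises ferrous iron, ranked 38th. Together they took 0.660% and 0.669% of all TPM in shPHF8 libraries and 0.652% and 0.735% in shControl libraries.

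FTL was at 4562 and 4421 TPM in shPHF8 libraries, against 4196 and 4512 TPM in shControl libraries. The groups overlapped, and the difference of 0.05 ± 0.05 (SE) had an interval from 0.937 to 1.14 times (limma, Benjamini-Hochberg adjusted p = 0.643). This is the narrowest interval of the 8 genes, and it does not reach the ratio seen for TFRC.

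FTH1 was at 2040 and 2268 TPM in shPHF8 libraries, against 2323 and 2842 TPM in shControl libraries. Both knockdown values were below both controls, by a small margin for shPHF8 replicate 2 and shControl replicate 1. The difference of -0.26 ± 0.12 (SE) did not pass (limma, Benjamini-Hochberg adjusted p = 0.309), and its interval ran from 0.668 to 1.05 times. It was -0.40 without shControl replicate 1 and -0.11 without shControl replicate 2, so its size rested on the controls. FTH1 amounted to 0.447 and 0.513 times the level of FTL in shPHF8 libraries and 0.554 and 0.630 times in shControl libraries, without overlap. GENCODE release 29 names 25 pseudogenes after FTH1, 16 after FTL and 3 after NCOA4. How reads shared with such copies were assigned is not given in the sources used here, so the levels of these genes are uncertain.

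NCOA4, the cargo receptor that delivers ferritin for breakdown, was at 220 and 222 TPM in shPHF8 libraries, against 267 and 276 TPM in shControl libraries. The groups were well apart, with the libraries of each group within 1.03 times of each other. The means were 221 ± 1.76 TPM in shPHF8 and 271 ± 6.14 TPM in shControl (SD, n = 2 each), so the knockdown stood at 81.4% of the control. The difference of -0.30 ± 0.06 (SE) had an unadjusted limma p of 0.00797, which was 0.0511 without shPHF8 replicate 1, and missed the threshold over the whole table (limma, Benjamini-Hochberg adjusted p = 0.119).

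The sensing genes had unequal levels. IREB2, whose protein is degraded when iron is plentiful, was at 113 and 111 TPM in shPHF8 libraries, against 114 and 102 TPM in shControl libraries. The groups overlapped, and the interval of its difference ran from 0.871 to 1.23 times (limma, Benjamini-Hochberg adjusted p = 0.783). ACO1, whose protein is a cytosolic aconitase when it holds an iron-sulphur cluster and an RNA-binding protein when it does not, was at 15.6 and 18.2 TPM in shPHF8 libraries, against 22.4 and 31.9 TPM in shControl libraries. Both knockdown values lay below both controls. The difference of -0.64 ± 0.22 (SE) had an unadjusted limma p of 0.0419 and missed the threshold over the whole table (limma, Benjamini-Hochberg adjusted p = 0.213). It was -0.39 without shControl replicate 2 and -0.88 without shControl replicate 1. Its unadjusted call was lost without shControl replicate 2, shPHF8 replicate 1 or shPHF8 replicate 2. It was also lost with quantile normalization (limma p of 0.0506) and with the most abundant transcript alone (difference -0.15, limma p of 0.562). That transcript overlapped between groups, and the other, ACO1-002, was above 0 only in shControl replicate 2. IREB2 was 7.22 and 6.11 times as abundant as ACO1 in shPHF8 libraries and 5.08 and 3.21 times in shControl libraries.

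**Figure D2:**
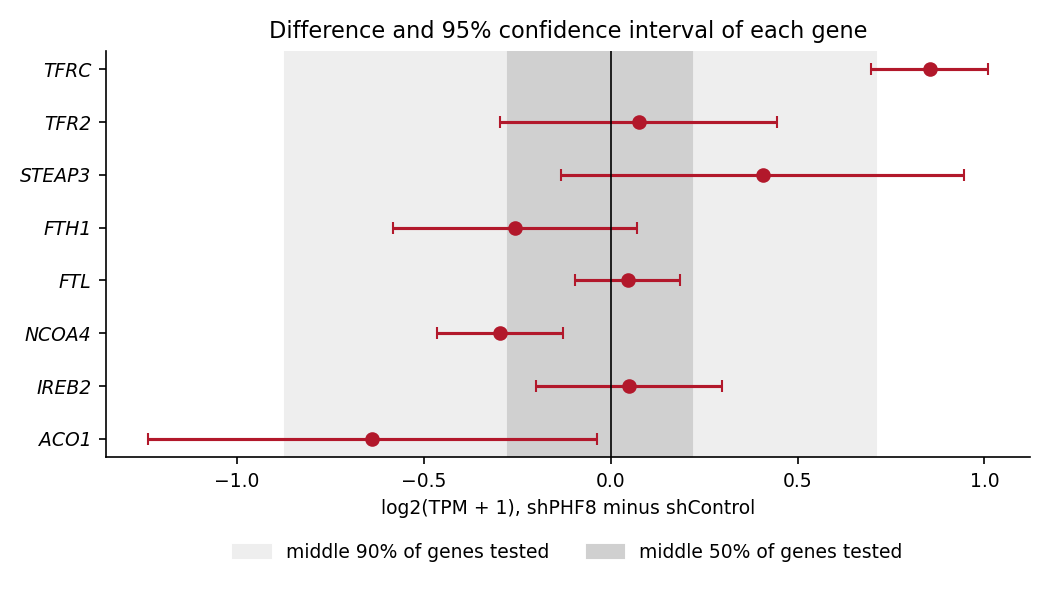
Difference of each gene in log2(TPM + 1), shPHF8 less shControl (horizontal axis), where points are estimates and whiskers 95% confidence intervals. The grey bands hold the middle 50% and 90% of the 10972 genes tested, and TFRC at 0.85 is the only one of the 8 estimates outside the wider band.

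Ordered by level per length in shPHF8 libraries, the genes ran FTL, FTH1, TFRC, NCOA4, IREB2, TFR2, STEAP3, ACO1. In shControl libraries ACO1 stood above STEAP3, and the rest of the order was the same. In shControl libraries TFRC and NCOA4 were close neighbours, with means of 299 and 271 TPM, and ACO1 overlapped TFR2. In shPHF8 libraries the same genes averaged 540 and 221 TPM. The ratio of TFRC to the sum of both ferritin subunits was 0.0807 and 0.0820 in shPHF8 libraries and 0.0451 and 0.0412 in shControl libraries. These ratios within a library do not depend on how libraries were scaled, and they are descriptions, since in an exact two-sided permutation test 2 of the 6 possible splits of these libraries are always as extreme as the most extreme one.

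The table also splits each gene into transcripts, which were fitted over 30266 transcripts. Of the 27 transcripts of the 8 genes, 3 were higher and 2 lower at an unadjusted limma p under 0.05, against a background of 10.3% in either direction, 4.91% higher and 5.38% lower. With Benjamini-Hochberg adjustment 0 of the 27 passed, and 1 of all transcripts did (0.00330%). The groups did not overlap for 8 of the 27, against 43.2% of all transcripts: 5 lay above (21.0% of all) and 3 below (22.2%). NCOA4-004, among the 3 higher, and FTH1-005, among the 5 above, were at 0 to 0.00681 TPM in shControl libraries. Both passed the filter of a mean of at least 1 TPM only through shPHF8 libraries, so they could lie only above. With a minimum of 5 TPM the 3 higher transcripts became 2.

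The TFRC sum was steady within groups but its split was not. TFRC-002 was at 463 and 161 TPM in shPHF8 libraries, against 201 and 258 TPM in shControl libraries. TFRC-003 was at 37.8 and 245 TPM in shPHF8 libraries, against 62.5 and 25.8 TPM in shControl libraries. TFRC-001 was at 32.0 and 143 TPM in shPHF8 libraries, against 30.3 and 19.4 TPM in shControl libraries. The library shPHF8 replicate 2 thus stood apart, with 29.3% of TFRC in TFRC-002 where the other 3 libraries had 68.5% to 86.9%. The starts of the 3 transcripts span 99 bases on GRCh38. The most abundant transcript alone gave a difference of 0.26 (limma, Benjamini-Hochberg adjusted p = 0.846), so the TFRC difference was seen in the sum, and 0 of its 3 transcripts had an unadjusted limma p under 0.05.

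For FTH1 most of the level was assigned to a short transcript without the iron-responsive element. FTH1-010, which codes for 113 residues and starts 409 bases downstream of the element on GRCh38, was at 1452 and 1636 TPM in shPHF8 libraries, against 1624 and 2261 TPM in shControl libraries. FTH1-001, which codes for the full 183 residues, was at 513 and 574 TPM in shPHF8 libraries, against 585 and 493 TPM in shControl libraries. The groups overlapped for both transcripts. The 7 FTH1 transcripts with the element shown above summed to 588 and 633 TPM in shPHF8 libraries and 700 and 581 TPM in shControl libraries, which was 28.8% and 27.9% of FTH1 in shPHF8 and 30.1% and 20.5% in shControl. Without the element-free FTH1-010, the FTH1 groups therefore overlapped. FTH1-201 was at 18.0 and 12.7 TPM in shPHF8 libraries, against 44.7 and 27.2 TPM in shControl libraries, with an unadjusted limma p of 0.0344 (limma, Benjamini-Hochberg adjusted p = 0.428).

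NCOA4 had transcripts that differed in both directions. Its main transcript NCOA4-201 was at 146 and 147 TPM in shPHF8 libraries, against 205 and 233 TPM in shControl libraries, a difference of -0.58 ± 0.10 (SE) with an unadjusted limma p of 0.00546. NCOA4-005 was at 43.9 and 38.3 TPM in shPHF8 libraries, against 24.8 and 23.0 TPM in shControl libraries, a difference of 0.75 ± 0.16 (SE) with an unadjusted limma p of 0.0116. Both code for 614 residues, and on GRCh38 NCOA4-005 starts 7259 bases downstream of NCOA4-201. The ratio of NCOA4-201 to NCOA4-005 was 3.33 and 3.83 in shPHF8 libraries and 8.26 and 10.1 in shControl libraries, without overlap. NCOA4-004 was at 4.76 and 5.99 TPM in shPHF8 libraries and listed at 0 in both shControl libraries. None of these transcripts passed over all transcripts (limma, Benjamini-Hochberg adjusted p of 0.222 to 0.317).

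Of the STEAP3 transcripts, STEAP3-001 alone did not overlap between groups. It was at 13.1 and 11.8 TPM in shPHF8 libraries, against 6.51 and 5.54 TPM in shControl libraries, with a difference of 0.94 ± 0.23 (SE) and an unadjusted limma p of 0.0195 (limma, Benjamini-Hochberg adjusted p = 0.362). For ACO1, ACO1-001 was at 15.6 and 18.2 TPM in shPHF8 libraries, against 22.4 and 15.8 TPM in shControl libraries, which overlap. ACO1-002 was listed at 0 in both shPHF8 libraries and in shControl replicate 1, and at 16.1 TPM in shControl replicate 2. The ACO1 difference was -0.15 in its most abundant transcript alone. The gap between groups in the ACO1 sum thus rested on 1 transcript in 1 control library.

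**Figure D3:**
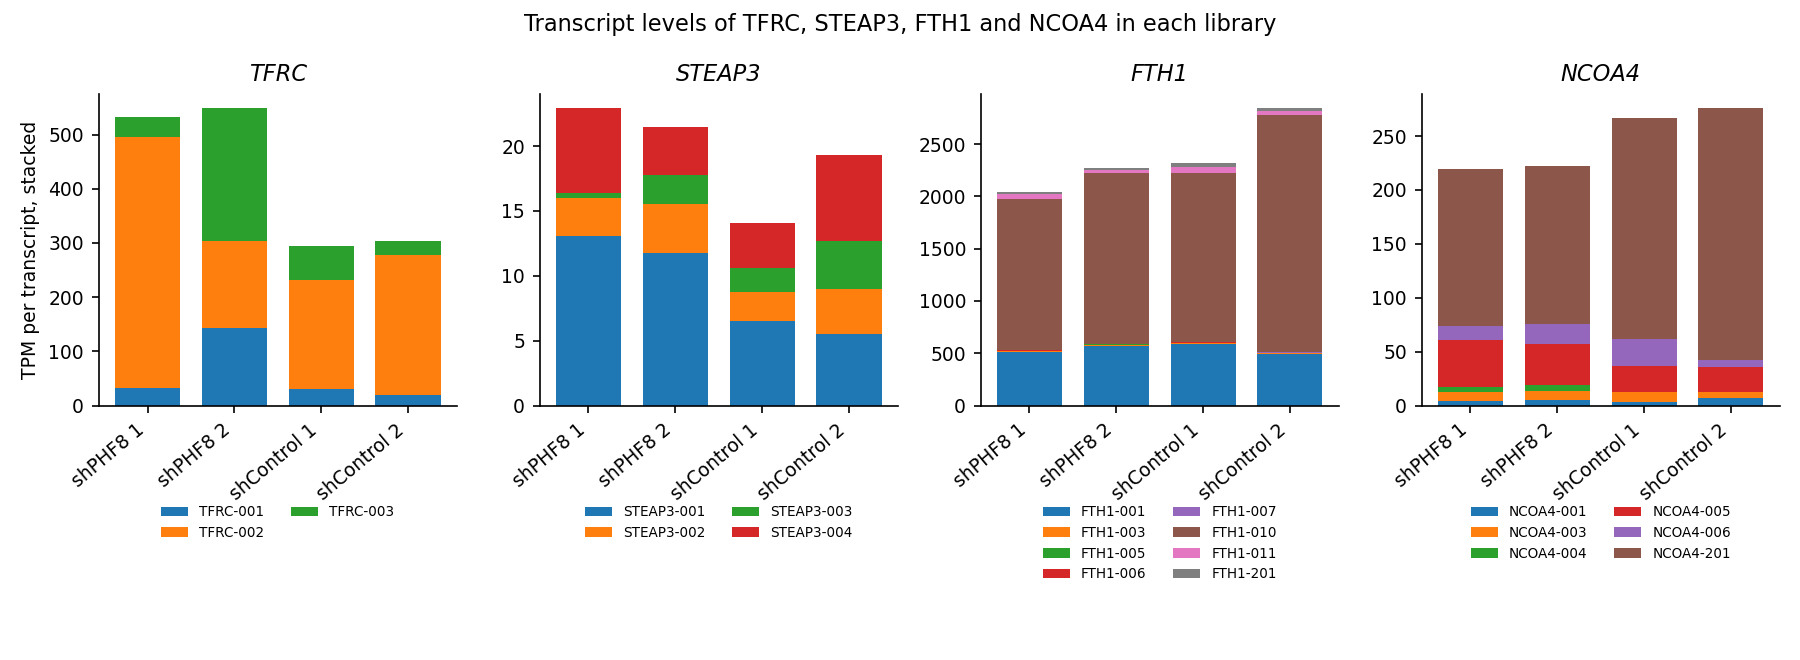
Stacked bars of TPM per transcript (vertical axes, each from 0) in each of the 4 libraries for TFRC, STEAP3, FTH1 and NCOA4. In TFRC the split differs in shPHF8 replicate 2 while the height is alike, and in NCOA4 the part from NCOA4-201 is smaller in both shPHF8 libraries at 146 and 147 TPM.

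The wider iron pathway was described through 8 lists with 70 distinct genes, of which 58 were tested. Unadjusted at 0.05, 10 were higher and 9 lower (limma), 32.8% against the background of 22.0%, and 0 passed with Benjamini-Hochberg adjustment. Their median difference was -0.00, and most of them had no unadjusted call. Without shPHF8 replicate 2 the 10 higher genes became 6, and with the replicate number as a block the 9 lower genes became 5.

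Among the 7 other genes known to carry an iron-responsive element in a transcript, 4 were higher and 0 lower, with a median difference of 0.43, against 9.90% higher and 12.1% lower and a median of -0.02 among all genes. The haem-synthesis enzyme ALAS2, also in the erythroid marker list, was at 132 and 99.0 TPM in shPHF8 libraries, against 82.5 and 75.8 TPM in shControl libraries. The iron exporter SLC40A1, or ferroportin, was at 135 and 126 TPM in shPHF8 libraries, against 101 and 91.9 TPM in shControl libraries. These, with the kinase CDC42BPA at 90.8 and 91.2 TPM in shPHF8 and 64.4 and 53.1 TPM in shControl libraries, did not overlap between groups. The endosomal iron transporter SLC11A2 (DMT1) did overlap, at 31.9 and 29.6 TPM in shPHF8 and 30.4 and 32.6 TPM in shControl libraries, named after its values were seen. The sequence search found a match in 4 of these 7, ALAS2, CDC14A and SLC40A1 among them.

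Among 11 tested genes of transferrin uptake and endosomal iron release, 2 were higher and 3 lower, against 9.90% and 12.1% of all genes. PICALM, a clathrin adaptor of transferrin receptor endocytosis, was at 340 and 330 TPM in shPHF8 libraries, against 540 and 483 TPM in shControl libraries. Its difference of -0.61 ± 0.08 (SE) thus ran opposite to that of TFRC (limma, Benjamini-Hochberg adjusted p = 0.0730). The metal transporter SLC39A8 was at 126 and 135 TPM in shPHF8 libraries, against 100.3 and 96.5 TPM in shControl libraries. MELTF, a transferrin-like protein, was at 18.5 and 18.3 TPM in shPHF8 libraries, against 13.7 and 12.9 TPM in shControl libraries. The lower genes beside PICALM were the reductase STEAP1, below 3.5 TPM in every library, and transferrin itself (TF), at 5.16 and 5.74 TPM in shPHF8 libraries and 12.1 and 7.84 TPM in shControl libraries; TF was named after its values were seen.

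The 5 tested genes of haem transport and breakdown comprised 1 higher and 4 lower ones, with a median of -0.50, against 9.90% higher and 12.1% lower among all genes. The endosomal haem transporter SLC48A1 was at 23.6 and 25.5 TPM in shPHF8 libraries, against 54.6 and 42.1 TPM in shControl libraries. The constitutive haem oxygenase HMOX2, which frees iron from haem, was at 36.6 and 39.2 TPM in shPHF8 libraries, against 54.7 and 64.0 TPM in shControl libraries. The biliverdin reductases diverged: BLVRA was at 96.6 and 101.3 TPM in shPHF8 and 133 and 147 TPM in shControl libraries, whereas BLVRB, abundant in red cells, was at 366 and 395 TPM in shPHF8 and 313 and 276 TPM in shControl libraries. The remaining lower gene was the haem exporter FLVCR1, at 16.6 and 18.4 TPM in shPHF8 and 23.0 and 24.0 TPM in shControl libraries, named after its values were seen.

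BACH1, a repressor that haem inactivates and that controls ferritin genes, was at 94.9 and 96.7 TPM in shPHF8 libraries, against 69.3 and 57.1 TPM in shControl libraries. It was the 1 higher gene of 5 tested haem and redox response factors. Of these 0 were lower, against 9.90% higher and 12.1% lower among all genes. Of 21 genes of mitochondrial iron import and iron-sulphur assembly 3 were higher and 1 lower, 4 of 21 against the background of 22.0%. The cysteine desulphurase NFS1 was at 14.6 and 15.1 TPM in shPHF8 libraries, against 8.88 and 9.28 TPM in shControl libraries. The co-chaperone HSCB was at 9.21 and 9.09 TPM in shPHF8 and 5.36 and 2.18 TPM in shControl libraries, and the lower gene ISCA2 at 7.45 and 7.18 TPM in shPHF8 and 9.92 and 14.2 TPM in shControl libraries. The chaperone HSPA9 was the most abundant of that list and overlapped, at 716 and 795 TPM in shPHF8 and 794 and 635 TPM in shControl libraries.

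Among genes of IRP2 degradation, made up of subunits of its ubiquitin ligase and HERC2, a ligase that acts on the subunit FBXL5, 0 of 5 tested genes were higher or lower at the threshold, and the most abundant, SKP1, was at 201 and 237 TPM in shPHF8 and 174 and 184 TPM in shControl libraries. The iron chaperones PCBP1 and PCBP2 gave 0 of 2, with PCBP2 at 571 and 700.1 TPM in shPHF8 and 566 and 498 TPM in shControl libraries. The background for each list here was 9.90% of all genes higher and 12.1% lower, 22.0% in either direction. Of 5 tested genes of iron export and its hormonal control 1 was higher, SLC40A1, and 1 lower, haemojuvelin (HFE2). HFE2 was at 3.90 and 6.32 TPM in shPHF8 and 9.35 and 10.8 TPM in shControl libraries. The oxidase HEPH, the most abundant of that list by mean level, overlapped at 115 and 120.1 TPM in shPHF8 and 126 and 112 TPM in shControl libraries.

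**Figure D4:**
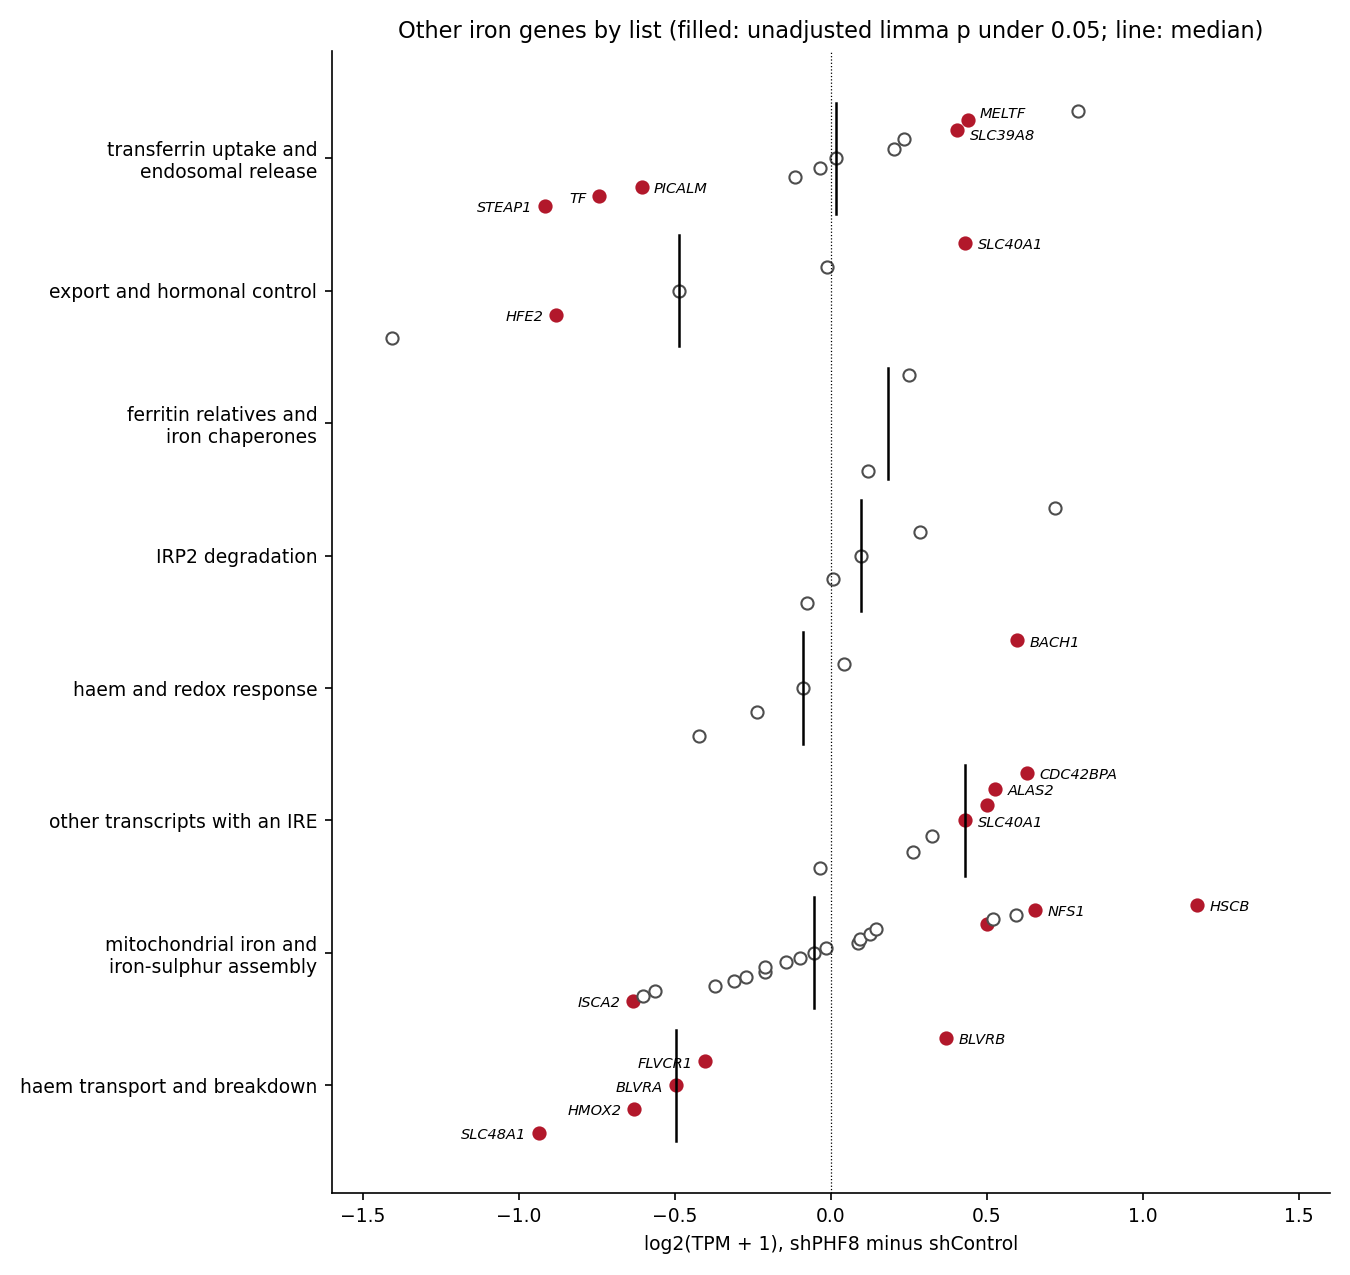
Difference in log2(TPM + 1), shPHF8 less shControl (horizontal axis), of every tested gene of the 8 iron lists, with 1 row per list. Filled points have an unadjusted limma p under 0.05, most of them named, and vertical lines are list medians, from -0.50 for haem transport and breakdown to 0.43 for the other transcripts with an iron-responsive element (IRE).

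The genes whose profile over the 4 libraries lay closest to that of TFRC, by the root-mean-square difference of centred log2(TPM + 1) values among the 8452 genes that averaged 10 TPM or more, were TMTC3 at 0.0325, HBG2 at 0.0354, SLC22A4 at 0.0368, KIAA1109 at 0.0423 and AFTPH at 0.0437. HBG2, a fetal globin with a near-identical copy, was at 2963 and 2952 TPM in shPHF8 libraries, against 1617 and 1748 TPM in shControl libraries. With 4 libraries, closeness is mainly a like ratio between the groups.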

How the data were processed

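Libraries were grouped by their titles. The authors deposited 1 table of TPM per transcript, per the file headers. HISAT2 2.0.4, StringTie 1.2.3 and hg19 are named in the submitters' processing notes; no source used here gives their roles, the annotation or the strandedness. A second set of deposited columns without a named unit, called signal here, was a constant multiple of TPM within each library and was not used for results. Transcript values of 1 gene name were added up and then taken as log2(TPM + 1), which understates the change of low genes. Genes and transcripts with a mean of at least 1 TPM were compared with limma 3.58.1 (R 4.3.3; two-sided moderated test, trend on, Benjamini-Hochberg adjustment over all features, threshold 0.05); the step was tested on simulated data. All 8 genes and 27 transcripts passed this filter. Depth is unknown, so no counting error is given. Genes, lists and tests were chosen with earlier results of these data known. Named were the 8 genes, PHF8, for each iron list up to 4 genes with the smallest unadjusted p under 0.05 and the most abundant gene, and the 5 genes most like TFRC. Alternatives were a pseudocount of 0.1, no filter, a minimum of 5 TPM, median-of-ratios and quantile scaling, no trend, a replicate block, each library left out, and the most abundant transcript alone. Python 3.11.15 (pandas 2.3.3, matplotlib 3.10.9) was used for tables and plots. The values of a few listed genes are not reported here.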

Additional observations from a re-analysis of the deposited data

How the results depend on the processing

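With 2 libraries per group and unknown depth, only large or very steady differences could pass, and leaving out a library leaves a lone sample whose spread is taken from the other group. Of 96 repeats of the 8 gene differences, 91 kept direction and side of the threshold for the adjusted p. Since 0 of the 8 passed in the main fit, the side could change only by passing, and size was not counted. With the most abundant transcript alone TFRC fell to 0.26 and ACO1 to -0.15, and both count as kept. TFRC passed with quantile normalization at 0.87 (limma, Benjamini-Hochberg adjusted p = 0.0485; over its alternatives 0.0485 to 0.846), FTL turned to -0.0026 and its transcript FTL-001 to -0.0271 with that setting, and leaving out libraries gave FTL from -0.0068 to 0.098, TFR2 from -0.0552 to 0.205 and IREB2 from -0.0265 to 0.13. The cause was not tested.

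At an unadjusted limma p under 0.05, the 1 higher gene became 1 to 2 and the 2 lower genes 0 to 3 over the libraries left out. The 2 lower genes became 1 with quantile normalization and 1 with the most abundant transcript. The 2 lower transcripts became 1 to 3 without single libraries and 1 without the trend. The 3 higher transcripts became 2 to 4, and of the other iron genes the 10 higher became 6 to 11 and the 9 lower 6 to 8. Of 289 repeats of transcript differences, 269 kept direction and side, and 0 passed. The single transcripts that turned without a library ranged from -0.39 to 0.0854 (ACO1-001), -0.11 to 0.14 (FTH1-001), -3.09 to 0.0893 (FTH1-006), -1.92 to 1.56 (FTH1-007), -0.62 to 0.0005 (FTH1-011), -0.0068 to 0.098 (FTL-001), -0.036 to 0.0873 (IREB2-001), -0.46 to 0.54 (NCOA4-001), -0.17 to 0.46 (NCOA4-003), -0.71 to 1.05 (NCOA4-006), -0.0338 to 0.40 (STEAP3-002), -0.36 to 0.43 (STEAP3-004), -0.0552 to 0.205 (TFR2-001), -0.50 to 1.02 (TFRC-002) and -0.0883 to 2.57 (TFRC-003). ACO1-002 gave no value without shControl replicate 2, since it is listed at 0 in the other libraries.

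The titles number the libraries of both groups, and no label says that equal numbers pair. Deviations of same-numbered libraries correlated at -0.029 over genes. With the replicate block the TFRC difference stayed at 0.85 (limma, Benjamini-Hochberg adjusted p = 0.193), FTH1 joined the lower genes at an unadjusted limma p of 0.0202, making 3, and the 9 lower genes of the iron lists became 5.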
